A study of Rattus norvegicus with 10 samples.

Results

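Translation initiation and elongation factors load the ribosome onto messenger RNA and move it along the reading frame. The genes described here are those whose platform symbol begins with Eif1, Eif2, Eif3, Eif4, Eif5, Eif6, Eef1 or Eef2, without the 4 Eif2ak kinase genes and Eef2k. 55 genes of the 14217 with a probe set of their own met this rule, read by 84 of 31042 probe sets, and the brightest probe set stood for each gene. Some 5 further probe sets, listed for Eif3e with Eif3el1, for Eif5 with its pseudogene or for Eif2s3 with Eif2s3y, were not used, so Eif3e and Eif5 have no value here. The rule also takes in a few genes that are no translation factors themselves, such as the eIF4E-binding proteins and the eEF1A methyltransferases.

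RNA came from the left ventricle of male Sprague-Dawley rats weighing 250 to 300 g, on day 3 after the transfer of a gene. In 5 samples the gene was GATA-4, which encodes a zinc finger transcription factor of the heart, and in the 5 controls it was LacZ, a bacterial reporter. The sources used here do not give the vehicle of the transfer, the site of injection, the age of the rats or the cells that took up the gene. Each of the 10 samples was hybridised to an Affymetrix rat array and gave a signal per probe set, reported here as normalized log2 signal, and group means carry the SD over 5 arrays.

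Initiation begins when eIF2 brings the initiator transfer RNA to the small ribosomal subunit, held open by eIF1, eIF1A and eIF3. The cap of the message is bound by eIF4E, which the scaffold eIF4G joins to the helicase eIF4A. After the subunits join with the help of eIF5B, eEF1A delivers each aminoacyl-tRNA and eEF2 shifts the ribosome by a codon. In heart muscle these steps set the rate of protein synthesis during growth, and eIF2B, the 4E-binding proteins and eEF2 are known points of control by kinases.

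As a check of the labels, Gata4 had a signal of 11.58, 11.28, 11.36, 11.59 and 11.42 on the 5 GATA-4 arrays, against 10.49, 10.82, 10.63, 10.72 and 10.58 on the 5 LacZ arrays. The groups lay apart, with means of 11.44 ± 0.14 on GATA-4 arrays and 10.65 ± 0.13 on LacZ arrays (SD, n = 5 each). The limma difference was 0.79 (SE 0.086, adjusted p = 0.00131). A second Gata4 probe set, too dim for limma, read 5.24 ± 0.65 on GATA-4 arrays and 4.44 ± 1.11 on LacZ arrays (SD, n = 5 each). Its groups overlapped (exact two-sided permutation p = 0.19). Listed heart muscle markers were all measured (10 of 10), with Myh6 at 13.49 ± 0.12 on GATA-4 arrays and 13.51 ± 0.029 on LacZ arrays (SD, n = 5 each). None of them passed limma, at the adjusted threshold or at an unadjusted p under 0.05. After quantile normalization 3 of the 10 differences were positive, with a median of -0.020. With arrays centred on their medians 0 were positive, with a median of -0.062, or -0.23 when GATA-4 array 1 was also left out. GATA-4 array 1 stood apart before normalization, with a trimmed mean signal of 142.3 on the linear scale, where the other GATA-4 arrays had 249.5 to 328.7 and the LacZ arrays 249.2 to 313.6. Calls that changed when this array was left out are given both ways. The log2 ratio of 3' to 5' control probe sets, a sign of RNA quality, was 1.07 ± 0.17 on GATA-4 arrays and 1.08 ± 0.25 on LacZ arrays (SD, n = 5 each, exact two-sided permutation p = 0.984). Of 3' over middle probe sets it was 0.88 ± 0.10 on GATA-4 arrays and 1.07 ± 0.14 on LacZ arrays (exact permutation p = 0.0476), and its part in the results below was not tested.

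Among the translation factors 1 gene passed the test. Eif4a1, the RNA helicase of the cap-binding complex, rose 1.45-fold with GATA-4. Its 95% interval was 1.29 to 1.64-fold. The other 54 genes had log2 differences of -0.43 to 0.45, and none of them passed. The test was limma with p-values adjusted by the Benjamini-Hochberg method over all 18625 probe sets bright enough to test, at a threshold of 0.05, and all 55 genes were bright enough. Every adjusted p of a single gene below comes from this fit unless a different choice is named, and a gene is said to rise or fall if it passed.

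The counts were read beside those over all 10688 genes tested, as a description with no test of the difference. A rise was called in 1 of 55, where 3.71% of all genes rose, and a fall in 0, where 2.66% fell, so 1.82% changed either way, where 6.37% of all genes did. At an unadjusted limma p under 0.05 there were 6 higher and 1 lower, together 12.7% of the translation factors, where 24.2% of all genes lay below it. The 7 were Eif4a1, Eif3c, Eif4e2, Eif4ebp1, Eif6 and Eef1d on the higher side and Eif3j on the lower. The groups did not overlap for Eif4a1 and Eif3c, which were higher, and for Eif3j, which was lower, that is for 5.45% of the translation factors. Among all genes they did not overlap for 9.66%, that is 4.56% higher and 5.1% lower with GATA-4. The median absolute log2 difference was 0.15 for translation factors and 0.17 for all genes tested, and single absolute differences were under 0.3 in 47 of 55 translation factors (85.5%) and in 74.7% of all genes. The fit could place 37 of the 55 differences, by their 95% intervals, within 0.5 of 0 on the log2 scale.

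The sign of the small differences depended on the scaling of the arrays. 38 of the 55 differences (69.1%) were positive after quantile normalization, where 47.4% of all genes had a positive one, and their median was 0.083. With arrays centred on their medians 29 were positive (52.7%), with a median of 0.012, where 41.2% of all genes were positive. Over all genes tested the median difference was -0.017 after quantile normalization and -0.056 after median centring, so it shifted downward together with that of the translation factors. Eif4a1 was higher with GATA-4 under both scalings.

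**Figure D1:**
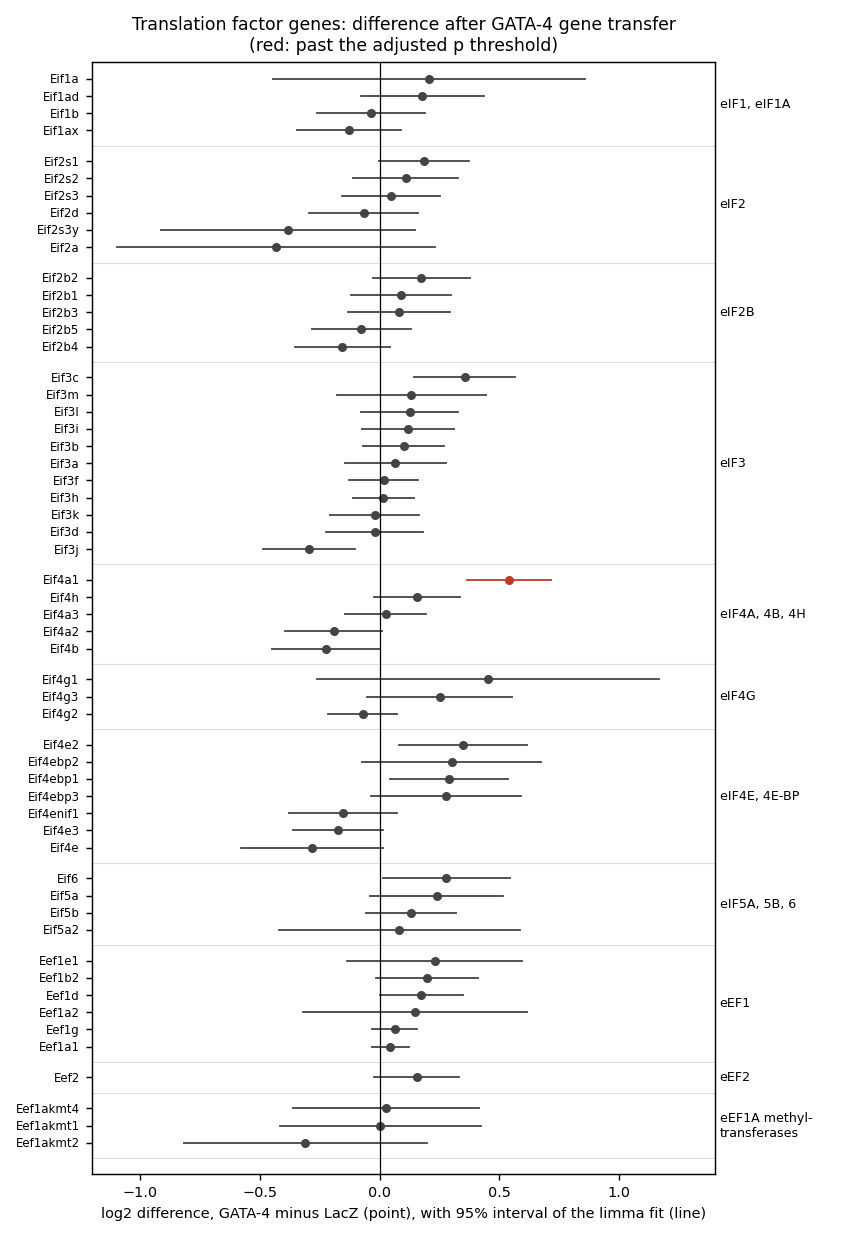
The log2 difference of each translation factor gene, GATA-4 minus LacZ, is drawn as a point with its 95% interval from the limma fit, in blocks by role. Eif4a1, in red at 0.54, is the gene past the threshold, and the widest interval is that of Eif4g1, -0.26 to 1.17.

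The eIF4A helicases unwind structure near the 5' end of the message. Eif4a1 had a signal of 10.74, 10.85, 10.72, 10.78 and 10.77 on GATA-4 arrays 1 to 5, against 10.28, 10.38, 10.14, 10.33 and 10.04 on LacZ arrays 1 to 5. Every GATA-4 array lay above every LacZ array, and the GATA-4 arrays, array 1 among them, lay close together. Means were 10.77 ± 0.048 on GATA-4 arrays and 10.23 ± 0.14 on LacZ arrays (SD, n = 5 each), and the difference was 0.54 (SE 0.081, adjusted p = 0.00661) with a 95% interval of 0.36 to 0.72. Leaving out single arrays gave differences of 0.49 to 0.58 with adjusted p-values of 0.00141 to 0.0269, all past the threshold. With the deposited signals taken without any normalization, the difference was 0.45 and the adjusted p 0.993, which ended the call. In ventricle RNA, more cells of a type that holds the transcript and more transcript per cell cannot be told apart.

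Eif4a2 encodes a closely related helicase. Its brighter probe set had a signal of 11.68, 12.28, 12.19, 12.18 and 12.18 on GATA-4 arrays 1 to 5, against 12.28, 12.31, 12.32, 12.30 and 12.26 on LacZ arrays 1 to 5. Array 1 was far below all others, GATA-4 arrays 3, 4 and 5 were slightly below the lowest LacZ array, and array 2 was among the LacZ arrays. The difference was -0.19 (SE 0.094, adjusted p = 0.254), and -0.083 (adjusted p = 0.189) without array 1, and its second, dimmer probe set differed by 0.11 (adjusted p = 0.718). Neither probe set passed.

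The helicase pair was compared within each array, by the log2 signal of Eif4a1 minus that of Eif4a2, in which a shift of a whole array cancels. This value was -0.94, -1.43, -1.46, -1.40 and -1.41 on GATA-4 arrays 1 to 5, against -1.998, -1.93, -2.18, -1.97 and -2.23 on LacZ arrays 1 to 5. All GATA-4 arrays lay above all LacZ arrays, and array 1 stood highest. The shift was 0.73, with an exact two-sided permutation p of 0.00794, the smallest that 5 against 5 arrays allow, and 0.0278 when adjusted over the 7 pairs compared. Without array 1 it was 0.63 and the adjusted exact permutation p 0.0556, above the threshold. That p was also above it without GATA-4 array 3 or LacZ arrays 1, 3 or 5. In the values above the groups lay apart with or without these arrays. With 1 array left out the smallest exact permutation p was again 0.00794, which for a lone pair adjusts to 0.0556. No pair can then pass alone, so the call depends on the other pairs as well. With the mean of both Eif4a2 probe sets the shift was 0.58 (adjusted exact permutation p = 0.0556).

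The upstream sequence of both helicase genes is shown because they form the pair that moved apart. Each line gives the 250 bases before the annotated start in RefSeq's assembly GRCr8, 5' to 3' on the gene's strand. Eif4a1 lies at chr10:54888603-54888852, minus strand, and Eif4a2 at chr11:91275324-91275573, minus strand. Capitals mark motifs on either strand, namely CCAAT, the motif TATAA, the E-box CACGTG, and GATA motifs, searched in 4 forms, as AGATAA and as the like form with T in first place, each ending in A or in G.
Eif4a1: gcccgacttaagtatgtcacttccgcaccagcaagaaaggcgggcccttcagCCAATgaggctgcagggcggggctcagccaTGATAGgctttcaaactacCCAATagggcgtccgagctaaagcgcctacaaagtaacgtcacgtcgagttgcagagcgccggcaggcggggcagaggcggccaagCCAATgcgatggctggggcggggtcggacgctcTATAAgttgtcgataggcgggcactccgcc
Eif4a2: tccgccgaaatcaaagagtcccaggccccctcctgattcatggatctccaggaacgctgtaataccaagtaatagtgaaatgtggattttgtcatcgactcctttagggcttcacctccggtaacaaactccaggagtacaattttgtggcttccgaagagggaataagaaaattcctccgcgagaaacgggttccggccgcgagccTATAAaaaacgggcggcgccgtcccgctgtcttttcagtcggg
The Eif4a1 window holds CCAAT at 198, 149 and 63 bases before the start and TATAA at 30 bases, and the Eif4a2 window holds TATAA at 43 bases and no CCAAT. At 168 bases the Eif4a1 window holds TGATAG, which is one of the forms of the GATA motif, and neither window holds a form of it ending in A. Over windows that also take in the 50 bases after the start, promoters were listed for 50 of the 55 genes, with 53 starts in all. A GATA motif ending in A occurred in 2 of these 53 (3.77%), those of Eif2s3 and Eif4g2, and in 10.4% of the promoters of all genes tested. A GATA motif of either ending occurred in 8 (15.1%), those of Eef1akmt1, Eif2s3, Eif3d, Eif3l, Eif4a1, Eif4ebp3, Eif4g2 and Eif5a, and in 19.5% of the promoters of all genes tested. CCAAT occurred in 30.2% of the translation factor promoters and 37.5% of those of all genes tested, and TATAA in 15.1% and 13.6%. The CCAAT motif, with that of TATAA and the GATA motif ending in G, was added to the search after the sequences had been seen. A pyrimidine tract at the start, the mark of messages under mTOR control, was read as C at the annotated start and C or T in the next 4 bases. It occurred in 1 promoter, that of Eif2a (1.89%), and in 2.77% of those of all genes tested, and a start annotated some bases away would be missed.

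Several further values bear on how Eif4a1 is read. RefSeq names 8 pseudogenes after Eif4a1 in this assembly, and whether the probe set also reads them, or Eif4a2, was not tested. Markers of infiltrating and dividing cells moved in the same comparison. Macrophage and monocyte markers rose in 7 of 10 and fell in none, with a summed level, as the mean log2 deviation over the list, of -0.10 on GATA-4 array 1 and 0.35 to 0.48 on GATA-4 arrays 2 to 5, against -0.48 to -0.15 on the LacZ arrays. Neutrophil markers rose in 3 of 5 measured, with Mmp8 too dim to test, at -1.04 on GATA-4 array 1 and 0.81 to 1.35 on GATA-4 arrays 2 to 5, against -1.42 to 0.087 on the LacZ arrays. Markers of dividing cells rose in 4 of 8, at -0.068 on GATA-4 array 1 and 0.23 to 0.63 on GATA-4 arrays 2 to 5, against -0.48 to -0.17 on the LacZ arrays. On GATA-4 array 1 each of these lists lay below its level on GATA-4 arrays 2 to 5. The macrophage and dividing cell lists were there above every LacZ array, and the neutrophil list was within the LacZ range. Eif4a1 on that array read 10.74, in a group range of 10.72 to 10.85. The part of these cells in the rise of Eif4a1 was not tested. Of T and NK cell, fibroblast, endothelial and smooth muscle markers none of 7, 8, 5 and 4 measured passed in limma. An unadjusted limma p under 0.05 was found for 3, 2, 1 and 0 of them, where 24.2% of all genes tested lay below it. Without GATA-4 array 1 the risers were 9 of 10 macrophage, 5 of 5 neutrophil, 7 of 8 dividing cell, 2 of 7 T and NK cell and 1 of 8 fibroblast markers, and 1 of 5 endothelial markers fell. In that fit 9.95% of all genes rose and 8.86% fell.

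**Figure D2:**
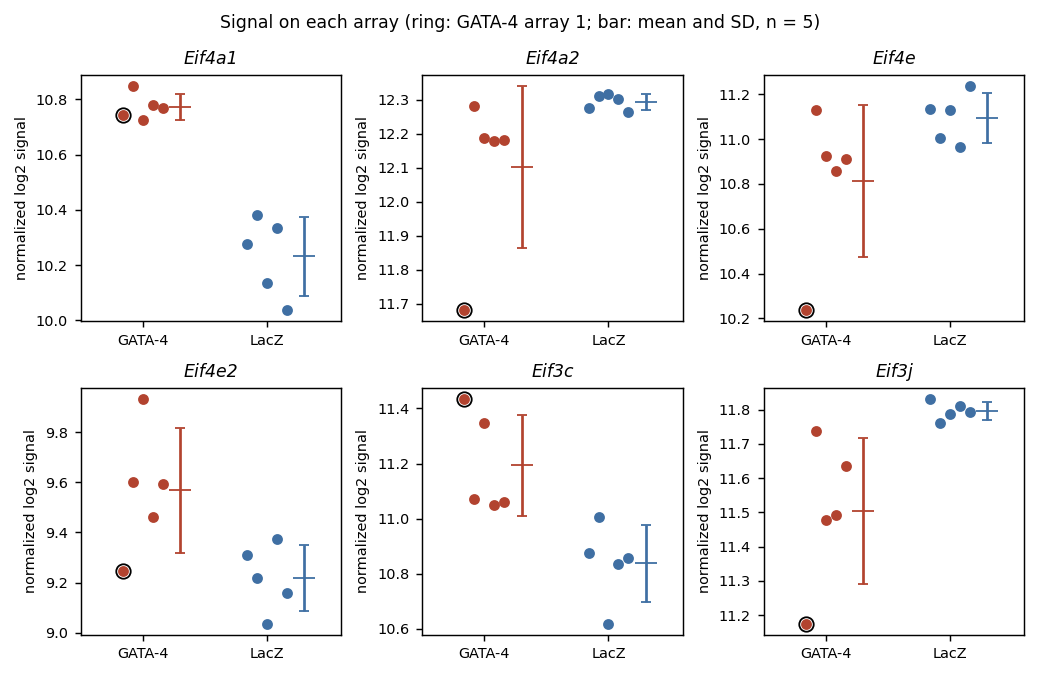
Normalized log2 signal on each array is plotted for 6 genes, GATA-4 left of LacZ, with the mean and SD (n = 5) as a bar and GATA-4 array 1 ringed. Eif4a1 separates the groups with array 1 inside its group, whereas for Eif4a2, Eif4e and Eif3j array 1 is the lowest of all 10.

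Eif4a3, a related helicase that serves the exon junction complex, differed by 0.026 (adjusted p = 0.877) with a 95% interval of -0.14 to 0.20. Of the helicase cofactors, Eif4h differed by 0.16 (adjusted p = 0.292) and Eif4b by -0.22 (adjusted p = 0.231). The brighter Eif4b probe set had a signal of 10.52, 10.32, 10.13, 9.94 and 10.18 on GATA-4 arrays 1 to 5, against 10.50, 10.56, 10.38, 10.46 and 10.32 on LacZ arrays 1 to 5, and array 1 was among the LacZ arrays while GATA-4 array 2 lay just above the lowest of them. Without array 1 the Eif4b difference was -0.30 (adjusted p = 0.0307), a fall, while the second Eif4b probe set, with all arrays, differed by 0.050 (adjusted p = 0.751).

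None of the 3 eIF4G scaffold genes passed, and their spread between arrays was wide for Eif4g1 and narrow for Eif4g2. Eif4g1 had a signal of 10.49, 8.77, 9.38, 9.74 and 9.87 on GATA-4 arrays 1 to 5, against 8.92, 9.43, 9.31, 10.07 and 8.27 on LacZ arrays 1 to 5. It was lowest on LacZ array 5 and GATA-4 array 2, the arrays with the highest 3' to 5' ratios of the controls, 1.43 and 1.34, and the part of RNA quality in this was not tested. The difference was 0.45 (SE 0.33, adjusted p = 0.452) with a 95% interval of -0.26 to 1.17. Eif4g3 differed by 0.25 (adjusted p = 0.313). Eif4g2, which encodes a form that lacks the eIF4E-binding part, had 12.31 on GATA-4 array 1 and 12.61 to 12.67 on GATA-4 arrays 2 to 5, against 12.58 to 12.67 on the LacZ arrays, and differed by -0.070 (adjusted p = 0.575).

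Among cap-binding proteins and their inhibitors none of 7 passed the limma test, and the unadjusted p was under 0.05 for Eif4e2 and Eif4ebp1. Eif4e, the cap-binding protein, had a signal of 10.24, 11.13, 10.93, 10.86 and 10.91 on GATA-4 arrays 1 to 5, against 11.13, 11.00, 11.13, 10.96 and 11.24 on LacZ arrays 1 to 5. Array 1 was the lowest of all, GATA-4 arrays 3, 4 and 5 were also below the lowest LacZ array, and array 2 was among the LacZ arrays. Its difference was -0.28 (SE 0.14, adjusted p = 0.248), and -0.14 (adjusted p = 0.239) without array 1. That of its dimmer tested probe set was 0.18 (adjusted p = 0.582).

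Eif4e2 encodes a homologue that binds the cap without joining eIF4G and acts as a repressor of translation. Its signal was 9.25, 9.60, 9.93, 9.46 and 9.59 on GATA-4 arrays 1 to 5, against 9.31, 9.22, 9.04, 9.37 and 9.16 on LacZ arrays 1 to 5. GATA-4 arrays 2 to 5 lay above the LacZ arrays and array 1 among them. The difference was 0.35 (SE 0.12, adjusted p = 0.12), and 0.43 (adjusted p = 0.0165) without array 1, a rise. Within arrays, Eif4e minus Eif4e2 was 0.99, 1.53, 1.00, 1.39 and 1.32 on GATA-4 arrays 1 to 5, against 1.82, 1.79, 2.10, 1.59 and 2.08 on LacZ arrays 1 to 5. Every GATA-4 array lay below every LacZ array, and the mean shift was -0.63 (exact two-sided permutation p = 0.00794, adjusted over the pairs 0.0278). With the mean of both tested Eif4e probe sets the shift was -0.40 and the adjusted exact permutation p 0.222, so this call rests on the brighter Eif4e probe set. Without array 1 the shift was -0.57 and the adjusted exact permutation p 0.0556. The same adjusted p was found without GATA-4 array 3 or LacZ arrays 1, 3 or 5. In the values above these groups too lay apart with or without these arrays, and again no pair could pass alone. Groups of unequal size can lie apart without reaching the smallest exact permutation p. With all arrays this pair and the helicase pair, both at that smallest p, adjusted to 0.0278. With these arrays left out, at least 1 of the pairs therefore lay above the smallest exact permutation p.

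The upstream windows of this second pair are shown in the same way, for Eif4e at chr2:229740503-229740752, plus strand, and for the first of the 2 starts listed for Eif4e2 at chr9:95333775-95334024, plus strand.
Eif4e: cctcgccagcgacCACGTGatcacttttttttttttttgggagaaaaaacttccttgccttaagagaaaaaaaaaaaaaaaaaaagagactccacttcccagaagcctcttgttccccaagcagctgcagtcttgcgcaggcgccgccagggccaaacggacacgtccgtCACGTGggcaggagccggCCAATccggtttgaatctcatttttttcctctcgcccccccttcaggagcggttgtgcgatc
Eif4e2: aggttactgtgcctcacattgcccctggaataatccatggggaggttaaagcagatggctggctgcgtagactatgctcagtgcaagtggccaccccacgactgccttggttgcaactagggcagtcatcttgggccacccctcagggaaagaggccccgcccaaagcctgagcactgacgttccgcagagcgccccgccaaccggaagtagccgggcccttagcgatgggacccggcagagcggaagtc
The Eif4e window holds CACGTG, the E-box bound by MYC and related factors, at 237 and at 80 bases before the start, and CCAAT at 62. Neither Eif4e2 window holds any of the letters searched. CACGTG occurred in 11 of the 53 translation factor promoters (20.8%) and in 9.31% of those of all genes tested. Beside Eif4e, these were the promoters of Eif1b, Eif3a, Eif3b, Eif3f, Eif4g1, Eif4h, Eif5a, Eif5a2, Eef2 and Eef1akmt4. None of these 11 genes passed the limma test, which 1.82% of the translation factors and 6.37% of all genes passed.

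The 4E-binding proteins hold eIF4E away from eIF4G. Eif4ebp1 had a signal of 10.49, 9.89, 10.20, 10.07 and 10.04 on GATA-4 arrays 1 to 5, against 9.67, 10.01, 9.76, 9.86 and 9.94 on LacZ arrays 1 to 5. Array 1 was the highest, and the groups overlapped through GATA-4 array 2. The difference was 0.29 (SE 0.11, adjusted p = 0.16). Eif4ebp2 and Eif4ebp3 differed by 0.30 (adjusted p = 0.332) and 0.28 (adjusted p = 0.285), and Eif4ebp1 minus Eif4ebp2 within arrays by -0.012 (exact permutation p = 0.913, adjusted 0.913). Eif4e3, another cap-binding homologue, and Eif4enif1, which carries eIF4E into the nucleus, differed by -0.17 (adjusted p = 0.267) and -0.15 (adjusted p = 0.418).

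**Figure D3:**
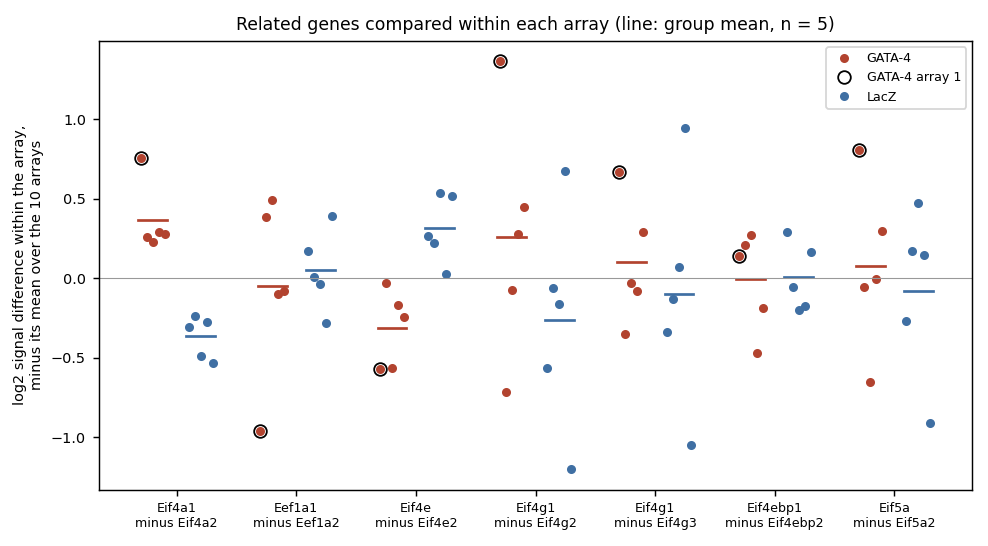
For each of 7 pairs of related genes, the log2 signal of the first minus the second within an array is plotted after subtracting the pair's mean over the 10 arrays, GATA-4 left of LacZ, with a line at each group mean (n = 5). The groups separate for Eif4a1 minus Eif4a2 and for Eif4e minus Eif4e2, and overlap for the other 5 pairs.

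The eIF3 complex, a many-subunit scaffold on the small ribosomal subunit, had 11 measured genes and none passed. Its differences ran from -0.29 to 0.36 with a median of 0.066, and the extremes were Eif3j and Eif3c. Eif3c, a core subunit, had a signal of 11.43, 11.07, 11.35, 11.05 and 11.06 on GATA-4 arrays 1 to 5, against 10.87, 11.01, 10.62, 10.83 and 10.86 on LacZ arrays 1 to 5. Each GATA-4 array lay above each LacZ array, the closest being GATA-4 array 4 and LacZ array 2. Means were 11.19 ± 0.18 on GATA-4 arrays and 10.84 ± 0.14 on LacZ arrays (SD, n = 5 each), and the difference of 0.36 (SE 0.10, adjusted p = 0.0539) fell just short of the threshold. A second, dimmer Eif3c probe set differed by 0.51 (adjusted p = 0.177). The mean of both probe sets passed, with 0.43 (adjusted p = 0.0421), as did the brighter one without array 1, with 0.29 (adjusted p = 0.0345).

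Eif3j encodes a loosely bound subunit that sits near the messenger RNA channel. Its signal was 11.18, 11.74, 11.48, 11.49 and 11.63 on GATA-4 arrays 1 to 5, against 11.83, 11.76, 11.79, 11.81 and 11.79 on LacZ arrays 1 to 5. All GATA-4 arrays lay below all LacZ arrays, which were within 11.76 to 11.83. The difference was -0.29 (SE 0.089, adjusted p = 0.0735), and -0.21 (adjusted p = 0.0295) without array 1 or -0.35 (adjusted p = 0.0385) without array 2, each a fall. Its second probe set differed by -0.15 (adjusted p = 0.531). Eif3c and Eif3j, subunits of one complex, thus lay apart in opposite directions, and the difference between them was not tested.

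Of the other eIF3 subunits, Eif3m differed by 0.13 (adjusted p = 0.633) and was low on array 1, at 11.51 against 11.86 to 12.01 on the LacZ arrays. Eif3h and Eif3f, of the ring that holds the complex together, differed by 0.016 with a 95% interval of -0.11 to 0.14 and by 0.017 with -0.13 to 0.16. Eif3a, Eif3b, Eif3d, Eif3i, Eif3k and Eif3l had differences from -0.021 to 0.13. With arrays centred on their medians 4 of 11 eIF3 differences were positive, where quantile normalization gave 8.

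Delivery of the initiator tRNA showed no call. The eIF2 subunit genes Eif2s1, whose product is the target of the stress kinases, Eif2s2 and Eif2s3 differed by 0.19 (adjusted p = 0.23), 0.11 (adjusted p = 0.574) and 0.049 (adjusted p = 0.805). For Eif2s1 the 5 GATA-4 arrays read 10.22, 10.55, 10.40, 10.23 and 10.47 and the 5 LacZ arrays 10.07, 10.26, 10.24, 10.22 and 10.16, with GATA-4 arrays 1 and 4 inside the LacZ range. Eif2s3y, the copy on the Y chromosome, and Eif2a, a separate tRNA-binding factor, had the same outlying array. Eif2s3y read 8.73 and Eif2a 7.96 on GATA-4 array 1, against lowest LacZ values of 10.12 and 9.64. Their differences were -0.38 and -0.43 with all arrays, and -0.10 (adjusted p = 0.566) and -0.066 (adjusted p = 0.745) without it. Eif2d, a factor of reinitiation, differed by -0.067 (adjusted p = 0.755).

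The eIF2B complex recharges eIF2 with GTP, and all 5 of its subunit genes were measured. Differences ran from -0.16 for Eif2b4 to 0.17 for Eif2b2, both regulatory subunits, with adjusted p-values of 0.342 and 0.3. The catalytic subunit gene Eif2b5 differed by -0.076 (adjusted p = 0.69), Eif2b1 by 0.090 and Eif2b3 by 0.081. Their 95% intervals together spanned -0.35 to 0.38.

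None of the 4 scanning factor genes passed with all arrays, and Eif1a alone passed without array 1. Eif1a, one of the genes for eIF1A, had a signal of 7.50, 9.37, 9.61, 9.04 and 9.11 on GATA-4 arrays 1 to 5, against 8.76, 8.64, 8.71, 8.70 and 8.80 on LacZ arrays 1 to 5. GATA-4 arrays 2 to 5 lay above every LacZ array and array 1 below every one. The difference was 0.21 (SE 0.30, adjusted p = 0.733) with all arrays and 0.56 (adjusted p = 0.00655) without array 1, a rise. Its other 3 probe sets had differences of 0.16, 0.53 and 0.20, and none passed with all arrays. Eif1ax, the X-linked gene for eIF1A, also had its lowest value on array 1, 10.26 against 10.68 to 10.85 with LacZ, and differed by -0.13 (adjusted p = 0.487). Eif1b, a gene for an eIF1 homologue, and Eif1ad, named for its eIF1A-like domain, differed by -0.037 (adjusted p = 0.87) and 0.18 (adjusted p = 0.406).

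No elongation factor passed the limma test, and Eef1d alone among them had an unadjusted p under 0.05. Eef1a1, which encodes the carrier of aminoacyl-tRNA, had a signal of 13.03, 13.09, 13.11, 13.07 and 13.06 on GATA-4 arrays 1 to 5, against 13.01, 13.05, 13.01, 13.03 and 13.03 on LacZ arrays 1 to 5. The groups overlapped, and all 10 arrays lay within 13.01 to 13.11. The difference was 0.045 with the smallest standard error of all 55 genes, 0.035, and a 95% interval of -0.031 to 0.12. Its sign turned with arrays centred on their medians (-0.032). RefSeq names 20 pseudogenes after Eef1a1, and whether its probe sets read them was not tested.

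Eef1a2, the form of eEF1A found in heart, skeletal muscle and neurons, had a signal of 12.52, 11.24, 11.15, 11.70 and 11.67 on GATA-4 arrays 1 to 5, against 11.37, 11.58, 11.58, 11.85 and 11.17 on LacZ arrays 1 to 5. Array 1 was the highest, and the groups overlapped. The difference was 0.15 (SE 0.22, adjusted p = 0.735), with -0.070 (adjusted p = 0.782) without array 1. Within arrays, Eef1a1 minus Eef1a2 shifted by -0.10 (exact permutation p = 0.762, adjusted 0.889).

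Among the eEF1B subunit genes, which recharge eEF1A, Eef1b2, Eef1d and Eef1g differed by 0.20 (adjusted p = 0.26), 0.17 (adjusted p = 0.226) and 0.063 (adjusted p = 0.419). Eef1b2 read 11.63, 12.10, 12.24, 11.99 and 11.99 on GATA-4 arrays 1 to 5, against 11.84, 11.84, 11.68, 11.69 and 11.91 on the LacZ arrays. Without array 1, the lowest of all, Eef1b2 rose by 0.28 (adjusted p = 0.0139). Eef1e1, whose product sits in the tRNA synthetase complex, differed by 0.23 (adjusted p = 0.459). Eef2, the translocase, read 12.77, 12.47, 12.37, 12.55 and 12.49 with GATA-4 and 12.32, 12.46, 12.38, 12.54 and 12.17 with LacZ. The groups overlapped, and the difference was 0.15 (SE 0.082, adjusted p = 0.287). All 6 eEF1 differences were positive after quantile normalization, and 4 of 6 with arrays centred on their medians.

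The remaining factors act around subunit joining and beyond. Eif6, which keeps the large subunit from joining too early, read 10.20, 10.58, 10.81, 10.38 and 10.29 with GATA-4 and 10.40, 10.14, 10.06, 10.29 and 9.98 with LacZ. GATA-4 arrays 2 and 3 were above every LacZ array and the others overlapped them, and the difference was 0.28 (SE 0.12, adjusted p = 0.206). Eif5a, a factor that carries the amino acid hypusine, and Eif5b differed by 0.24 (adjusted p = 0.299) and 0.13 (adjusted p = 0.406). Eif5a2 had a dim signal of 6.24 ± 0.42 on GATA-4 arrays and 6.16 ± 0.39 on LacZ arrays (SD, n = 5 each), and Eif5a minus Eif5a2 shifted by 0.16 within arrays (exact permutation p = 0.651, adjusted 0.889). The pairs of Eif4g1 with Eif4g2 and with Eif4g3 shifted within arrays by 0.52 and 0.20 (exact permutation p = 0.286 and 0.627, adjusted 0.667 and 0.889). Eef1akmt1, Eef1akmt2 and Eef1akmt4, genes for enzymes that methylate eEF1A, had differences of 0.0034, -0.31 and 0.027 with standard errors of 0.18 to 0.23.

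The translation factors were most spread out on GATA-4 array 1. On it the log2 values of the 55 genes deviated from the 10-array averages with an SD of 0.50, where the SD was 0.14 to 0.23 on GATA-4 arrays 2 to 5 and 0.11 to 0.25 on the LacZ arrays. It held the highest value of 17 genes and the lowest of 15, while GATA-4 array 3 also held the highest of 17, and the lowest of 1. The spread of all genes on these arrays is not given here. Without GATA-4 array 1, 5 genes rose (Eif4a1, Eif1a, Eef1b2, Eif4e2 and Eif3c) and 2 fell (Eif3j and Eif4b), 12.7% of the translation factors. Of all genes 18.8% changed there, 9.95% upward and 8.86% downward. Without GATA-4 arrays 4 and 5, whose sample numbers lie apart from the others', Eif4a1 was again the gene called (adjusted p = 0.0445), where 1.38% of all genes changed.

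**Figure D4:**
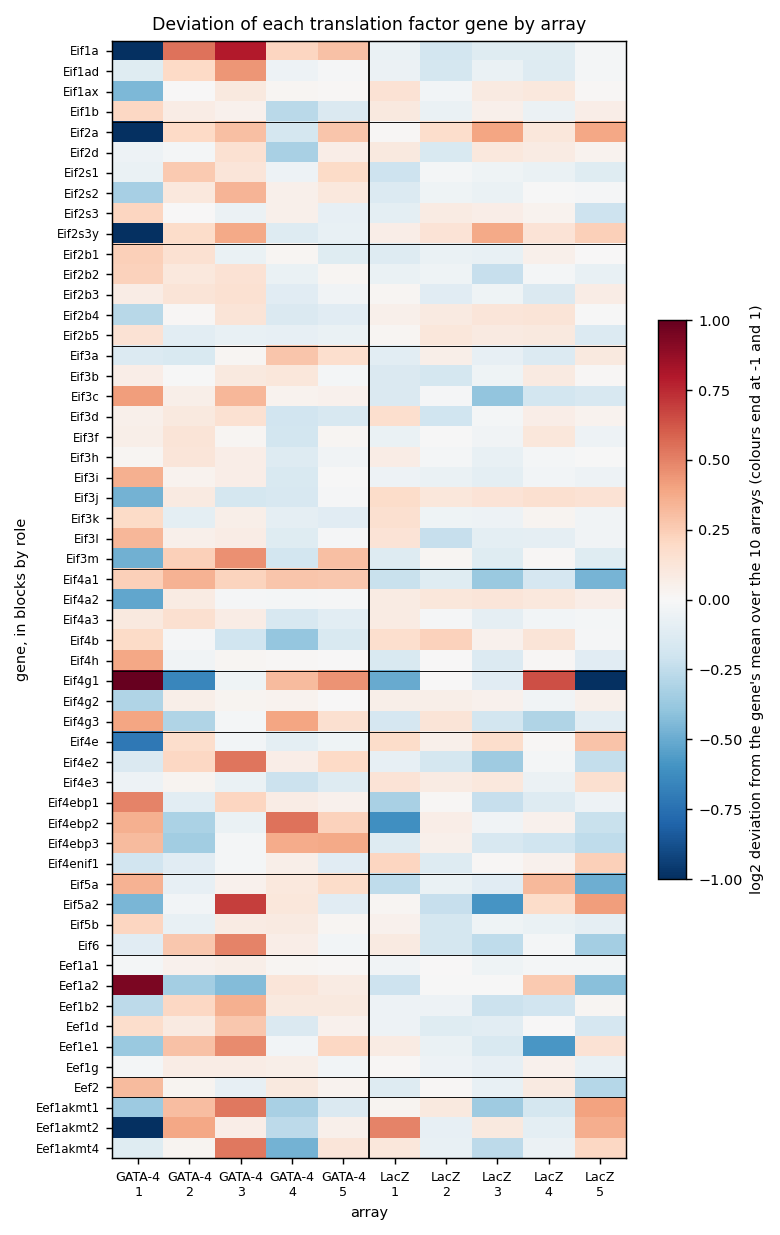
Each row is a translation factor gene in blocks by role and each column an array, GATA-4 left of LacZ, coloured by how far its log2 signal lies from the 10-array average of that gene, with colours ending at -1 and 1. GATA-4 array 1 holds deep colours in both directions, Eif4g1 is also deep on LacZ array 5, and Eif4a1 is red on all 5 GATA-4 arrays and blue on all 5 LacZ arrays.

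More than 1 tested probe set was available for 17 genes. All tested probe sets of a gene had one sign in 9 of them, Eif3c, Eif3j, Eif1a and Eef1a1 included, and both signs in 8, Eif4a2, Eif4b and Eif4e included. Eif4a1 has 1 probe set, so its rise has no second reading on the array. Over all 76 tested probe sets of these genes, that of Eif4a1 was the 1 called, where 5.3% of all probe sets tested were.

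**Figure D5:**
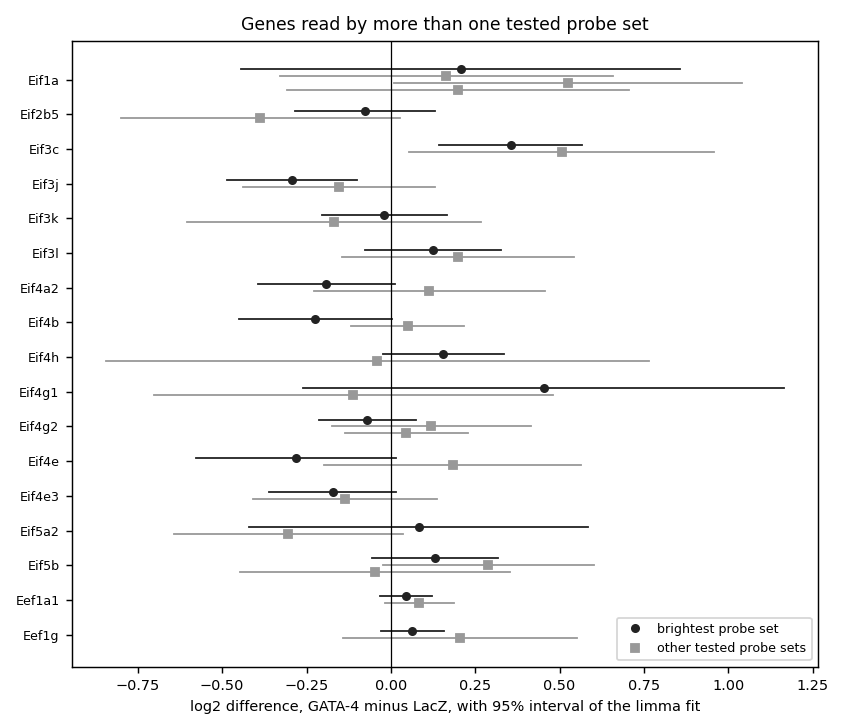
For the 17 genes with several tested probe sets, each probe set's log2 difference, GATA-4 minus LacZ, is drawn with its 95% interval, the brightest as a black circle and the others as grey squares. The 2 Eif3c probe sets lie right of 0, at 0.36 and 0.51, while those of Eif4b and Eif4e lie on both sides.

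Other genes of the translation machinery were read from lists. Of 34 measured regulators 1 rose and 0 fell, with a median of -0.027, where 3.71% of all genes rose and 2.66% fell. Without GATA-4 array 1 there were 3 rises and 2 falls, where 9.95% of all genes rose and 8.86% fell. The riser was Dap, known from human cells as a target of the growth kinase mTOR with a part in autophagy. It had 10.84 ± 0.11 on GATA-4 arrays and 10.55 ± 0.080 on LacZ arrays (SD, n = 5 each), a difference of 0.29 (SE 0.077, adjusted p = 0.0466). The kinase genes Eif2ak1 to Eif2ak4, whose products phosphorylate eIF2, differed by 0.024, 0.18, -0.037 and -0.048, and Eef2k, the kinase of eEF2, by -0.27, with adjusted p-values of 0.325 to 0.909. Rps6kb1, a kinase downstream of mTOR, lay lower on every GATA-4 array than on any LacZ array and differed by -0.34 (adjusted p = 0.0615).

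Cytosolic aminoacyl-tRNA synthetases, which charge tRNAs, had 16 positive differences among 19 measured, with a median of 0.16, and 13 with arrays centred on their medians. Of them 1 rose, where 3.71% of all genes did, and 2 without GATA-4 array 1, where 9.95% did. An unadjusted limma p under 0.05 was found for 7, where 24.2% of all genes lay below it. The riser with all arrays was Nars1, the asparagine enzyme, with 10.27 ± 0.17 on GATA-4 arrays and 9.90 ± 0.088 on LacZ arrays (SD, n = 5 each) and a difference of 0.37 (SE 0.095, adjusted p = 0.0408). The list score was 0.14 on GATA-4 array 1 and -0.045 to 0.24 on GATA-4 arrays 2 to 5, against -0.15 to -0.0080 on the LacZ arrays. Factors of mitochondrial translation were lower in all 8 measured genes, with a median of -0.31 and -0.33 with median centring, where again none was positive. Of them 2 fell, where 2.66% of all genes did, and 5 without GATA-4 array 1, where 8.86% did. Gfm1 and Gfm2, mitochondrial elongation and recycling G factors, fell by 0.35 (SE 0.078, adjusted p = 0.0255) and fell by 0.50 (SE 0.13, adjusted p = 0.0415) on the log2 scale. Their list score was -0.21 on GATA-4 array 1 and -0.20 to -0.058 on GATA-4 arrays 2 to 5, against 0.058 to 0.19 on the LacZ arrays, so the groups lay apart on the summed level. Release and recycling factors had 0 rises and 0 falls in limma among 8 measured, with Nemf alone at an unadjusted p under 0.05, with a difference of -0.29, and the list had a median of 0.053. Without GATA-4 array 1 the number of falls was 1, where 8.86% of all genes fell. These lists were compared with the translation factors by their counts and medians alone.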

How the data were processed

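The authors deposited probe set intensities on a linear scale, computed in GCOS according to the submitters' processing notes, with its version, summary algorithm and scaling not given in the sources used here. Detection calls were not used. Names of probe sets came from GEO's annotation of the platform, updated by gene ID from RefSeq (GRCr8). A single gene was listed for 20826 of 31042 probe sets, several for 436 and none for 9780. The deposited intensities were taken to log2, quantile normalized without the 57 controls because the arrays' trimmed means differed by over 5%, and then floored at 0. The 3' to 5' ratios come from the values as deposited. Probe sets with a mean above the 40th percentile entered limma (version 3.58.1, R 4.3.3, lmFit, eBayes with trend, no covariates, Benjamini-Hochberg). 95% intervals come from the same fit. Pairs and array measures were tested by exact permutation, two-sided, over 252 assignments of arrays, whose smallest p is 0.00794; over 7 pairs a lone pair at that p has an adjusted p of 0.0556.

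Groups follow the source labels, since the titles name GATA-4 on all 10 arrays, and array numbers are names without pairing. The labels do not name an animal for each sample, so the p-values measure the spread between these samples, and the number of arrays limits the precision. The genes, lists and pairs were chosen with earlier results of these data known. Genes named are Gata4, those past the threshold, in each role group the brightest and the one with the smallest p, the genes of the pairs and the called genes of each pathway list. Other names were chosen after their values were seen. The pair of Eif1 with Eif1b was not compared, since no probe set is listed for Eif1 alone. Alternatives were other scalings, constants, floors, filters and variance models, array weights (statmod 1.5.0), the mean of a gene's probe sets, and leaving out arrays.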

Additional observations from a re-analysis of the deposited data

Results flagged for a closer look

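In 11 of 126 groups of 5 arrays looked at, 1 array lay far from the other 4 of its group by Dixon's test at the 95% level, which chance alone gives in about 1 of 20 groups, or 6.3 here. 8 of them were GATA-4 array 1 and 3 were LacZ arrays. GATA-4 array 1 was low for Eif1a (7.50, the others 9.04 to 9.61), Eif1ax (10.26, the others 10.71 to 10.80), Eif2a (7.96, the others 9.46 to 9.93), Eif4a2 (11.68, the others 12.18 to 12.28) and Eif4g2 (12.31, the others 12.61 to 12.67).

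The same array was high for Eif2b5 (8.75, the others 8.50 to 8.54) and Eif4h (11.94, the others 11.52 to 11.58), and for Eif4a1 minus Eif4a2 (-0.94, the others -1.46 to -1.40). Among LacZ arrays, array 2 was low for Eif2d (9.16), array 3 for Eif2b2 (8.58) and array 4 for Eif4g2 (12.58). The cause was not tested.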

How the results depend on the processing

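No paired analysis was possible because the labels give the groups no shared replicate numbers. Eif4a1 kept its direction and its call in 21 of 22 alternatives (adjusted p 0.00093 to 0.0445), the exception being the signals as deposited, where the Gata4 difference was 0.70 with a limma adjusted p of 0.993 and no translation factor passed or separated the groups (0 and 0). Changed translation factors numbered 2 of 52 tested with a filter at the 60th percentile, where 1092 of all 12417 probe sets tested changed. They numbered 7 of 55 with array weights, where 2890 of 18625 probe sets changed. When GATA-4 array 1 was left out under median centring they numbered 5 of 55, where 2616 of 18625 probe sets changed. With single arrays left out they numbered 1 to 7 of 55, where 174 to 2849 of 18625 probe sets changed. With the mean of a gene's probe sets they numbered 2, and changes over all genes were not counted there. Groups did not overlap for 6 translation factors without GATA-4 arrays 4 and 5 (10.9%, where 15.7% of all genes did not) and for 3 to 8 with single arrays left out, where all genes gave 10.3% to 19.4%, the highest in both without GATA-4 array 1 (14.5% of translation factors). The translation factors' median difference was 0.015 as deposited, 0.012 with median centring, -0.023 with that centring and array 1 of GATA-4 left out, 0.12 without GATA-4 arrays 4 and 5 and 0.052 to 0.11 with single arrays left out.

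Changed probe sets numbered 988, 566 higher and 422 lower, and with median centring 322 higher and 401 lower. They numbered 9 as deposited, all higher, 619 with no filter, 539 without the intensity trend, 2890 with array weights, 201 without GATA-4 arrays 4 and 5, and 2616 when GATA-4 array 1 was left out under median centring. With single arrays left out they ran from 174 (LacZ array 3) to 2849 (GATA-4 array 1), with 341, 558 and 539 without GATA-4 arrays 3, 4 and 5 and 384, 391 and 323 without LacZ arrays 1, 4 and 5. Pairs past the threshold, 2 with all arrays, numbered 0 without GATA-4 arrays 4 and 5. There 2 pairs at the smallest exact permutation p of 0.0179 have an adjusted p of 0.0625 by design. They numbered 0 when GATA-4 array 1 was left out under median centring and 0 with the mean of probe sets. With single arrays left out they numbered 0 to 2. In that case a lone pair at the smallest exact permutation p, 0.00794, has an adjusted p of 0.0556 by design.

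The signs below were followed through the alternatives for 30 of the translation factors and for the pairs. Among these, in the signals as deposited the sign turned for Eif2s2 (-0.0083), Eif3m (-0.0018) and Eef1a1 (-0.029). With median centring the sign turned for Eif2s2 (-0.011), Eif3m (-0.0043) and Eef1a1 (-0.032). Outside the 30, the sign turned under both of these choices for Eif2s3, Eif3a, Eif3f, Eif3h, Eif4a3 and Eef1g. When GATA-4 array 1 was left out under median centring the sign turned for Eef1a1 (-0.12), Eef1a2 (-0.17), Eef2 (-0.063), Eef1a1 minus Eef1a2 (0.045) and Eif5a minus Eif5a2 (-0.15). With the mean of a gene's probe sets the sign turned for Eif4g2 (0.032), Eif5a2 (-0.11) and Eif4g1 minus Eif4g3 (-0.081). Without GATA-4 arrays 4 and 5 the sign turned for Eif4ebp1 minus Eif4ebp2 (0.21). With single arrays left out the sign turned at least once for Eif5a2 (range -0.080 to 0.21), Eef1a2 (range -0.070 to 0.28), Eef1akmt1 (range -0.13 to 0.10), Eef1a1 minus Eef1a2 (range -0.24 to 0.12), Eif4g1 minus Eif4g3 (range -0.037 to 0.46), Eif4ebp1 minus Eif4ebp2 (range -0.081 to 0.11) and Eif5a minus Eif5a2 (range -0.052 to 0.34). None of the turned values passed the threshold. The cause was not tested.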
